A study of Mus musculus with 7 samples.

Results

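The complement components described here are 9 mouse genes, C1qa, C1qb, C1qc, C1ra, C1s1, C2, Cfb, C3 and C4b, chosen by symbol from a fixed list of complement genes, and they are 9 of the 27998 genes measured. They were followed in single-cell RNA sequencing (10x Genomics 3' v3) of the stromal vascular fraction, the non-adipocyte cells that collagenase releases from fat, here from inguinal subcutaneous adipose tissue. There were 3 libraries from old mice, 18 months of age, and 4 libraries from young mice, 11-12 weeks of age per the sample labels. Every animal was a female of the C57BL/6N strain, and no other treatment or allele is labelled in either group. Each library is read as 1 mouse, though the labels do not say whether animals were pooled. The p-values measure the spread between these libraries. The female inguinal pad also holds mammary gland, so luminal and basal epithelial cells are part of the tissue.

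Complement is a cascade of blood and tissue proteins that tags particles for removal. In the classical pathway, the C1q molecule, built from chains A, B and C, binds a target and activates the proteases C1r and C1s, which cleave C4 and C2 to form a C3 convertase. Factor B is the counterpart of C2 in the alternative pathway, and C3 is the central protein that both convertases cleave. The liver makes most plasma complement, while macrophages are the main tissue source of C1q, and fibroblast-like cells of many tissues make C1r, C1s and C3.

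The genes lie in groups in the genome, given here in build mm10 with the GENCODE M21 annotation. On chromosome 4, C1qb (136880129-136886187), C1qc (136889804-136893065) and C1qa (136895917-136898803) follow each other with no gene between them. On chromosome 6, C1ra (124512405-124523443, plus strand) and C1s1 (124530345-124542359, minus strand) lie 6901 bases apart. On chromosome 17, Cfb (34856374-34862518) and C2 (34862604-34898265) are separated by 85 bases, C4b (34728380-34743882) lies nearby, and C3 (57203970-57228136) is farther along. Some transcript ends were hard to assign: of the 31-base words in the last 500 bases, C4b shared 57.7% with C4a, C1s1 shared 27.7% with C1s2 and C1ra shared 23.4% with C1rb. C4b counts are therefore uncertain between C4b and C4a. No gene named C4a is among the genes counted, so its part in the C4b counts could not be examined. Over all kept cells C1s2 held 65 UMIs (unique molecular identifiers) in old and 145 in young libraries, and C1rb held 16 in old and 30 in young libraries. Zbtb12 overlaps C2 on the opposite strand, with 838 UMIs in old and 1827 in young libraries. Gm20547 (34856412-34882042) overlaps both Cfb and C2 on the same strand and held 0 UMIs in old and in young libraries. The effect of this overlap on the C2 and Cfb counts was not tested.

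Promoters from RefSeq (build GRCm38.p6) were found for C1qb, C1qc, C1ra, C1s1 and C3, and those of 3 genes that lie outside any transcript of the gene itself are shown, 1 for each of the chief sources described below: C1qb for macrophages, and C1s1 and C3 for progenitors. Each runs 5′ to 3′ over the 250 bases before the start, and capitals mark matches to the motifs searched on both strands.
C1qb chr4:136886201-136886450, minus strand: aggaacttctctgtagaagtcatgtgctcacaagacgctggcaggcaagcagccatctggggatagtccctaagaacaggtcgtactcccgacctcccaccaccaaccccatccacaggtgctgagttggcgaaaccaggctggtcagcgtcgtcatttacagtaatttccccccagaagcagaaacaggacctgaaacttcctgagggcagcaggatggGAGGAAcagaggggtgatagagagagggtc
C1s1 chr6:124542360-124542609, minus strand: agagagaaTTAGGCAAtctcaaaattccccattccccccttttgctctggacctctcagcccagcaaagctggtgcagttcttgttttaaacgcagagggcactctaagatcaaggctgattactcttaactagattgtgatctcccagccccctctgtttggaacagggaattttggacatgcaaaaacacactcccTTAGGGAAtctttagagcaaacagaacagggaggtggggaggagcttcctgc
C3 chr17:57228137-57228386, minus strand: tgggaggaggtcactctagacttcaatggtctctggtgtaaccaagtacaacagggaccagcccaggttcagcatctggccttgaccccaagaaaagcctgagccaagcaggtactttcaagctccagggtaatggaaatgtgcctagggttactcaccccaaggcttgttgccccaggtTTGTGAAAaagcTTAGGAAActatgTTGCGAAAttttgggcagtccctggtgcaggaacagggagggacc
The C1qb promoter held the core letters of the myeloid factor PU.1 (GAGGAA) 30 bases before the start. This hexamer is present in 23.3% of 32851 promoters of the same length. The C/EBP pattern TTNNGNAA, found in 36.8% of promoters, occurred at 242 and 52 bases before the C1s1 start and at 70, 58 and 45 bases before the C3 start, the last on both strands. A match is a description of the letters, not of binding. Also searched, with the share of promoters that hold each, were the STAT pattern TTCNNNGAA (7.02%) and the TATA box TATAAA (12.4%), neither of which is in the 3 windows shown.

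The matrices held 45514 barcodes with 52336665 to 99516882 UMIs per library, and 37456 cells were kept: 6242, 6910 and 5843 in the old libraries and 4489, 5574, 2795 and 5603 in the young libraries. The median cell held 5968 to 7876.5 UMIs in old libraries and 9260 to 13749 in young libraries. Classes were rebuilt from marker genes, without the complement genes, and each name stands for cells like that type; all 7 macrophage, 7 progenitor and 7 hormone-sensing luminal markers were seen in at least 20% of the cells so named. The classes most used below held 2636 old and 2070 young macrophages, 4475 old and 7481 young progenitors and 102 old and 799 young hormone-sensing luminal cells. Unnamed cells made up 13.6% of old and 10.3% of young cells on average. Libraries stood apart in these ways: 416 of the 486 macrophages of old replicate 3 formed a subcluster of their own, and young replicate 1 held only 103 macrophages, with 468 of its 1101 progenitors in unnamed subclusters. Libraries of 1 age shared 4 to 11 barcodes.

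Levels below are UMIs of a gene over all UMIs of a class in 1 library, on the CPM scale; they are compared between classes and ages, not between genes, since they are not per length. Because classes were made by clustering, differences between classes are descriptions, while old and young libraries were tested with edgeR's quasi-likelihood test on sums per library, adjusted over all genes of the fit.

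**Figure D1:**
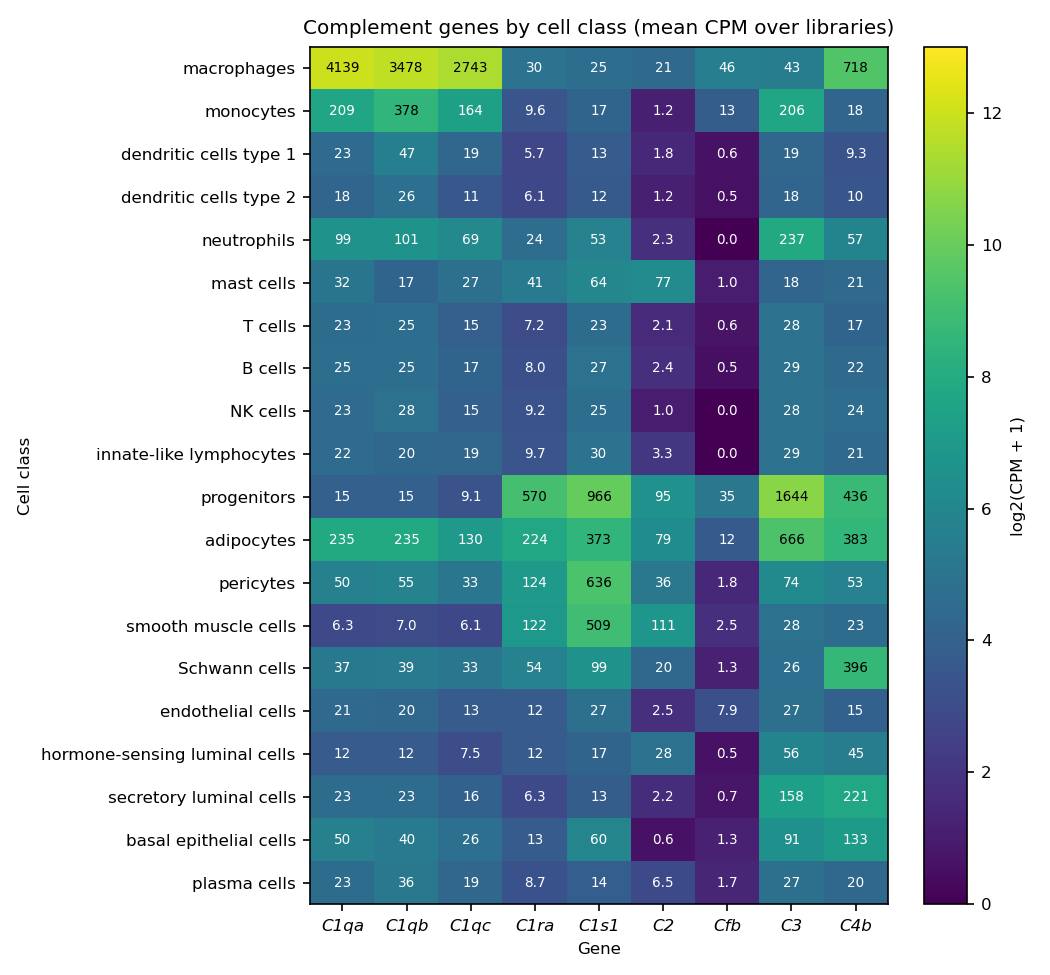
Mean level of each complement gene (columns, CPM printed in the cells, with colour as log2(CPM + 1)) in each cell class found in at least 2 libraries (rows). The C1q chains are highest in macrophages, C1ra, C1s1 and C3 in progenitors, and C4b in macrophages and progenitors.

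C1q came from macrophages. C1qa averaged 4139 ± 657 CPM in macrophages, C1qb 3478 ± 569 and C1qc 2743 ± 388 (SD, n = 7 libraries). The macrophage libraries lay above every library of the next class, and the next highest C1qa means were 235 CPM in adipocyte-like cells (3 libraries), 209 in monocytes and 99.0 in neutrophils, and C1qa in progenitors was 284 times lower. Macrophages gave on average 76.8% of C1qa UMIs in old and 73.3% in young libraries, and unnamed cells gave 18.9% in old and 22.8% in young libraries. In young replicate 1 the macrophage part was 38.6% and the unnamed part 52.9%. At a depth of 2000 UMIs per cell, all 3 chains were seen together in 93.2% ± 0.95 of old and 94.5% ± 1.1 of young macrophages, against 0.195% of old and 0% of young T cells, the measure of free RNA here. Monocytes held C1qb at 225, 361 and 634 CPM in old and 7.24, 156, 496 and 769 CPM in young libraries, and the ages overlapped.

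The macrophage subclasses differed in C1q. Lyve1 resident macrophages, which line vessels and take up material, held C1qa at 4285 and 4039 CPM in the 2 old libraries with enough cells and at 6131, 4319, 4858 and 4572 CPM in young libraries. Trem2 lipid-associated macrophages, found in enough cells in old libraries only, held less, 1297, 1416 and 1056 CPM of C1qa, with C1qb at 2152, 2098 and 1919 CPM. C1qb made up 46.9% of the C1q UMIs there, against 35.5% in old macrophages as a whole.

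C1r and C1s, the proteases that C1q activates, came from progenitors, the Pdgfra-positive cells that form new adipocytes and matrix. C1ra averaged 570 ± 114 CPM and C1s1 966 ± 121 CPM in progenitors (SD, n = 7 libraries). Progenitors gave on average 93.9% of C1ra UMIs in old libraries and 93.1% in young libraries, and 92.6% of C1s1 UMIs in old and 89.0% in young libraries. Both genes were seen in the same cell in 57.0% of old and 53.1% of young progenitors at 2000 UMIs. Mural cells also held C1s1: pericytes averaged 636 CPM, at 527, 441 and 489 CPM in old and 919, 813, 684 and 580 CPM in young libraries, and smooth muscle cells averaged 509 CPM in 3 young libraries. C1ra was lower there, 124 CPM in pericytes and 122 CPM in smooth muscle cells.

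C3 also came from progenitors, which gave 93.4% of its UMIs in old and 95% in young libraries. The level depended on the progenitor subclass. Interstitial progenitors, marked by Pi16 in adipose tissue, held 3142, 5436 and 4595 CPM in old and 3245, 3019, 4648 and 4106 CPM in young libraries, and regulatory progenitors held 3693, 5369 and 3254 CPM in old and 3583, 3253, 2530 and 2672 CPM in young libraries. Committed preadipocytes held 871, 1397 and 761 CPM in old libraries and 1250 CPM in 1 young library, and matrix-producing progenitors, seen in young libraries only, held 337, 210 and 161 CPM. C3 thus ran from the highest level in interstitial and regulatory progenitors to the lowest in matrix-producing ones. Outside progenitors it was highest in adipocyte-like cells (1301 and 475 CPM in old and 223 CPM in 1 young library, from 25 to 43 UMIs each), and was also found in neutrophils (230, 435 and 45.9 CPM, old libraries), secretory luminal cells (108, 201 and 66.6 CPM in old and 257 CPM in 1 young library) and monocytes (248, 322 and 183 CPM in old and 181, 154, 234 and 122 CPM in young libraries). The old adipocyte-like sums hold only 33041 and 56798 UMIs of all genes, from 23 and 67 cells, and the young one 112277 from 23 cells. The part of stray RNA in their C3 was not tested.

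C4b, the thioester protein that C1s cleaves, had 2 main sources. Macrophages averaged 718 ± 241 CPM and progenitors 436 ± 226 CPM (SD, n = 7 libraries), with overlapping ranges, and macrophages gave 33.9% of C4b UMIs in old and 19.6% in young libraries, while progenitors gave 52.8% in old and 74.2% in young libraries. Within macrophages, Lyve1 resident cells held most (1741 and 1140 CPM in old, 1160, 827, 759 and 921 CPM in young libraries), MHC class II macrophages less (571 and 477 CPM in old, 283, 215 and 379 CPM in young libraries), and lipid-associated macrophages least (72.1, 51.5 and 12.8 CPM in old libraries). Regulatory progenitors, at 1672, 1575 and 1343 CPM in old and 1563, 1280, 991 and 1142 CPM in young libraries, were the highest progenitor subclass. Schwann cells, which ensheathe nerves, held 432, 458 and 299 CPM in young libraries.

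The proteases C2 and factor B, close relatives that lie next to each other, were not found in the same pattern; their mean levels over 21 classes correlated at 0.42 (Pearson r on log2(CPM + 1), a description over classes that share libraries). C2 was highest in smooth muscle cells (46.8, 188 and 99.9 CPM, young libraries) and in progenitors, and most of all in regulatory progenitors, with 192, 281 and 334 CPM in old and 485, 419, 421 and 373 CPM in young libraries. From 1 to 30 UMIs each, mast cells held 34.1 and 28.3 CPM in old and 125, 63.5 and 135 CPM in young libraries. Adipocyte-like cells held 121 and 70.4 CPM in old and 44.5 CPM in 1 young library, from 4 to 5 UMIs each, and the part of stray RNA was not tested. Pericytes held 143 CPM in young replicate 1 and 0 to 38.3 CPM in the other libraries. Cfb was highest in macrophages (mean 45.7 CPM) and progenitors (34.6 CPM). Regulatory progenitors held 70.0, 104 and 105 CPM in old and 122.6, 54.3, 98.4 and 65.7 CPM in young libraries, and interstitial progenitors 43.6, 90.2 and 114 CPM in old and 86.3, 43.2, 71.2 and 47.5 CPM in young libraries. Among macrophages, Cfb was higher in Lyve1 resident cells (43.6 and 54.4 CPM in old, 112, 64.0, 68.1 and 80.0 CPM in young libraries) than in lipid-associated cells (0.89, 3.2 and 12.8 CPM in old libraries).

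**Figure D2:**
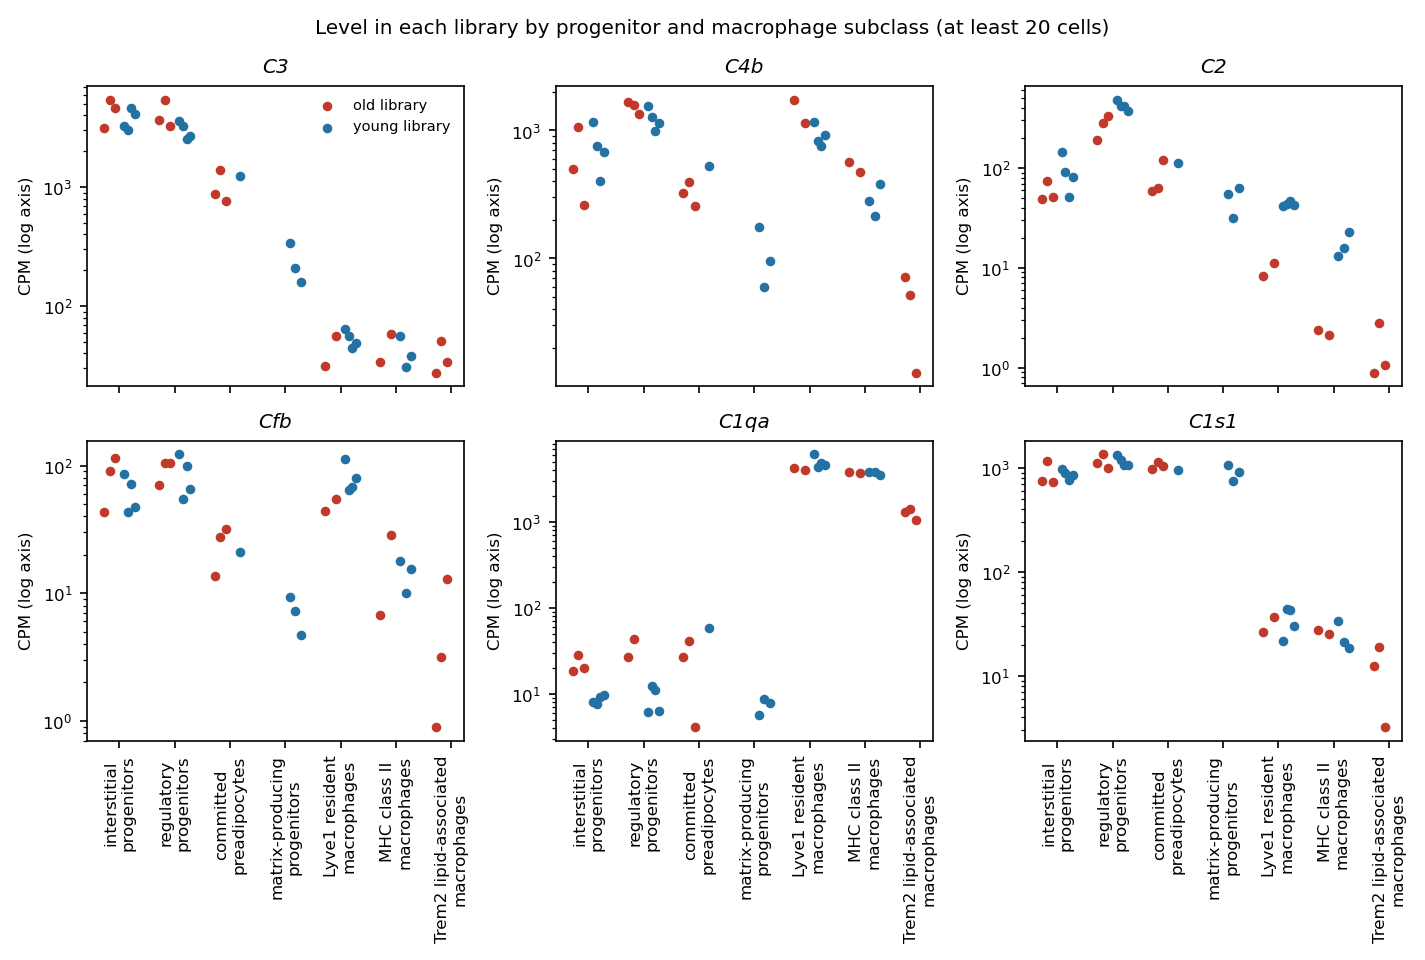
Level (CPM, log axis) of 6 complement genes in each library, for 4 progenitor and 3 macrophage subclasses, old libraries to the left of young ones. C3, C4b and C2 are highest in interstitial or regulatory progenitors, and C4b and Cfb are highest in Lyve1 resident macrophages among the macrophage subclasses.

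The genes whose class means followed a complement gene most closely, over 21 classes and with no p, were as follows. For C1qa the nearest were C1qb and C1qc (r = 0.99 each) and Ms4a7, a gene of resident macrophages (0.97). C1s1 tracked Serping1, the inhibitor of C1 (0.98), C1ra tracked Col6a2 (0.96), C3 tracked Lbp, which binds bacterial lipopolysaccharide (0.84), and Cfb tracked Igf1 (0.84). C1ra and C1s1 correlated at 0.93.

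Old and young libraries were compared for 90 gene and class pairs in 15 fits. C2 in macrophages and C4b in hormone-sensing luminal cells passed, while 23 pairs had an unadjusted p under 0.05; over all genes of the 15 fits, 0.728% passed and 11% had an unadjusted p under 0.05. In macrophages 1 of 9 complement genes fell and none rose, where 0.748% of all 11627 genes tested passed (0.344% of them lower in old). The median over the 9 genes was -0.35 on the log2 scale, beside 0.01 over all genes.

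C2 was the gene that fell. Macrophages held 5.33, 5.73 and 4.13 CPM in old libraries (37, 70 and 17 UMIs) and 34.3, 31.5, 35.3 and 33.8 CPM in young libraries (29, 225, 144 and 230 UMIs), so the 2 ages did not overlap. The means were 5.06 ± 0.83 CPM in old and 33.7 ± 1.6 CPM in young macrophages (SD, n = 3 and 4). The log2 fold change was -2.72 (SE 0.18, 95% interval -3.13 to -2.32, edgeR adjusted p = 0.000282), and the exact permutation test gave p = 0.0286, the smallest that 35 splits allow. Leaving out any 1 library kept the change between -2.77 and -2.69, with an adjusted p of at most 0.00647. Without old replicate 3, whose macrophages mostly formed their own subcluster, it was -2.69, and without young replicate 1 it was -2.77. Those unnamed cells of old replicate 3 held 4.95 CPM.

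The lower level was also present within subclasses, where 35 pairs were tested and 3 passed. In Lyve1 resident macrophages C2 stood at 8.35 and 11.2 CPM in old and 41.5, 43.9, 46.7 and 42.7 CPM in young libraries (log2 fold change -2.26, SE 0.21, adjusted p = 0.0050; 0.0547% of all genes passed as lower there). In MHC class II macrophages it stood at 2.4 and 2.13 CPM in old and 13.1, 16 and 22.7 CPM in young libraries (-3.10, SE 0.40, adjusted p = 0.0305; 0.0863% passed as lower). With 2 old libraries per subclass, these calls were lost without either old library or without young replicate 4, and in MHC class II macrophages also without young replicate 3. The share of macrophages with a C2 UMI at 2000 UMIs per cell was 0.951% ± 0.048 in old and 6.26% ± 2.0 in young libraries, against 0.558% in old and 0.244% in young T cells, the free-RNA measure. The old share lies close to that background. A level for stray progenitor RNA was scaled from C3, taking all C3 in macrophages as stray. The C2 CPM was 2.33 to 4.21 times that level in old and 7.08 to 19.9 times in young macrophages.

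Beside this, 7 progenitor markers summed to 169 to 319 CPM in old macrophages, 0.602 to 1.27% of their level in progenitors, and to 450 to 832 CPM in young macrophages, 1.26 to 1.75% of that level. The 8 monocyte markers summed to 173 to 296 CPM in old and 254 to 515 CPM in young macrophages. Interferon-induced genes summed to 2038, 3433 and 2121 CPM in old and 6022, 3540, 4517 and 3488 CPM in young macrophages. Of 24 tested, 23 had a lower value in old macrophages and none passed by edgeR (7 had an unadjusted p under 0.05). Of all genes in that fit, 48.1% had a lower value in old and 10.6% had an unadjusted p under 0.05. The part of these in the C2 difference was not tested.

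**Figure D3:**
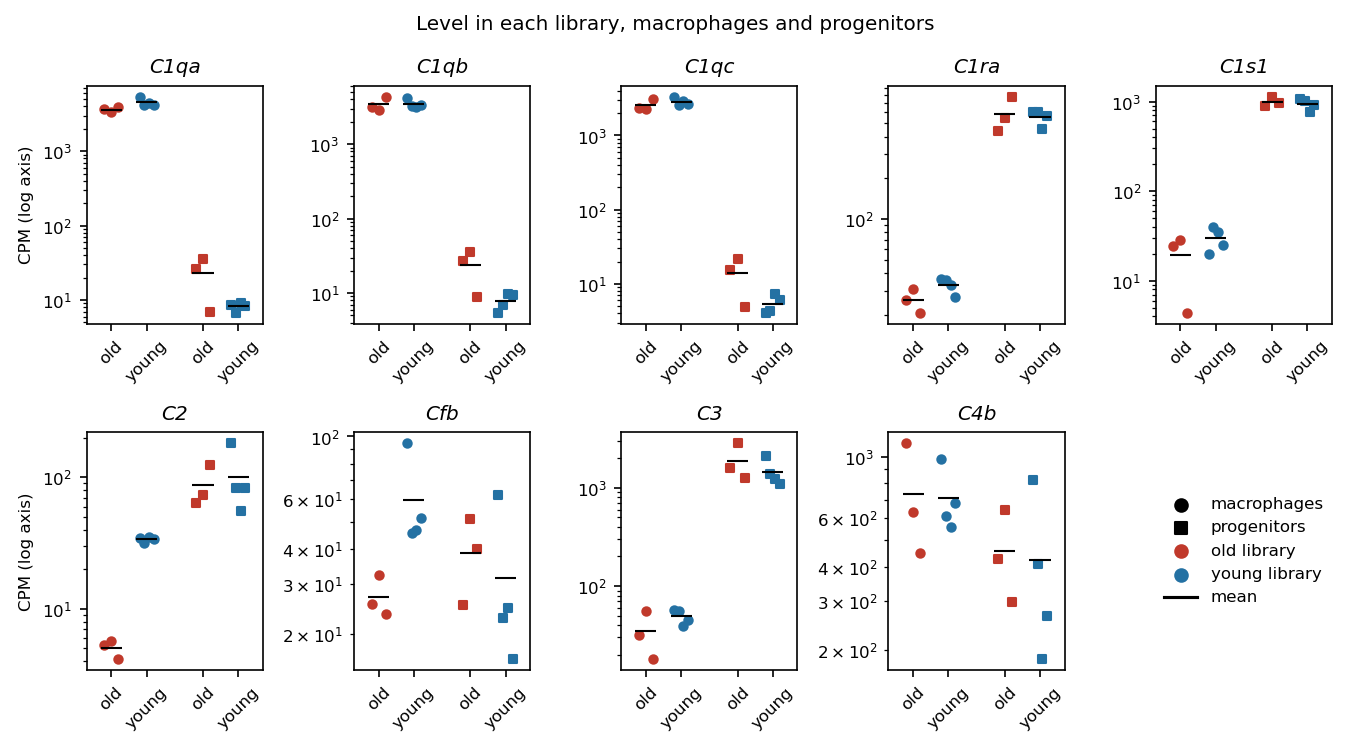
Level (CPM, log axis) of each complement gene in every library, in macrophages (circles) and progenitors (squares), old libraries left of young ones, with lines at the means. C2 in macrophages is near 5 CPM in old libraries and near 34 CPM in young ones, while in progenitors the ages overlap.

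Factor B missed the threshold in macrophages. Cfb was 25.5, 32.3 and 23.6 CPM in old and 94.6, 45.7, 46.6 and 51.6 CPM in young macrophages, so every old library lay under every young one. The log2 fold change was -1.05 (SE 0.22, -1.54 to -0.56, adjusted p = 0.0663; exact p = 0.0286). It passed in 4 of 18 alternatives, among them the fit without young replicate 1, whose value of 94.6 CPM stood above the others (-0.88, adjusted p = 0.0338). Of macrophages at 2000 UMIs, 5.34% held Cfb in old and 8.56% in young libraries, against 0.0325% of old and 0.0828% of young T cells. In Lyve1 resident cells Cfb was lower in each old library with enough cells than in every young one. In MHC class II macrophages the ages overlapped, at 6.72 and 28.3 CPM in old and 17.8, 9.98 and 15.4 CPM in young libraries. Lipid-associated cells, low in Cfb, had enough cells in old libraries only. The part of this subclass mix in the Cfb difference was not tested.

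None of the C1q chains passed in macrophages. C1qa was 3645, 3316 and 3893 CPM in old and 5361, 4103, 4470 and 4181 CPM in young libraries, with no overlap; 9.33% of all genes tested had ages that did not overlap there. Its log2 fold change of -0.28 did not pass (adjusted p = 0.726; exact p = 0.0286). C1qb was 3166, 2858 and 4329 CPM in old and 4235, 3229, 3182 and 3344 CPM in young libraries (0.04, adjusted p = 0.995), and C1qc was 2377, 2265 and 3098 CPM in old and 3323, 2559, 2931 and 2648 CPM in young libraries (-0.10, adjusted p = 0.949). Of C1q UMIs, C1qa made up 37.8% ± 2.9 in old and 41.6% ± 0.47 in young macrophages, and C1qb 35.5% ± 2.4 in old and 32.1% ± 1.4 in young macrophages (exact p = 0.0286 for each). The C1qa share was 34.4% in old replicate 3, against 39.7% and 39.3% in the other old libraries. In the subclasses, which hold no value of old replicate 3 and too few libraries for the exact test to pass, C1qa made up 42.5% in old and 43.0% in young Lyve1 resident cells and 38.4% in old and 38.8% in young MHC class II macrophages, and C1qb 30.1% in old and 30.7% in young Lyve1 resident cells and 36.2% in old and 34.6% in young MHC class II macrophages.

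C4b overlapped between the ages in macrophages (1117, 630 and 450 CPM in old, 984, 610, 558 and 680 CPM in young, 0.06, adjusted p = 0.986). In MHC class II macrophages C4b was higher in each old library (571 and 477 CPM) than in every young one (283, 215 and 379 CPM). In Lyve1 resident cells the ages overlapped, and neither was among the 3 subclass pairs that passed. Lipid-associated cells, low in C4b, had enough cells in old libraries only. The part of this mix in the C4b value was not tested. C1ra (-0.35, adjusted p = 0.480), C1s1 (-0.71, 0.631) and C3 (-0.49, 0.605) did not pass there either.

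In progenitors none of 9 genes passed by edgeR, where 1.85% of 13976 genes did; 3 of the 9, and 17.5% of all genes, had an unadjusted p under 0.05. By DESeq2 3 passed, the C1q chains, whose levels were highest in macrophages. The share of all genes that passed by DESeq2 is not given here. The progenitors were a different mix of subclasses at each age. Matrix-producing cells were 1373 of 2630, 625 of 1007 and 1839 of 2743 progenitors in young replicates 2, 3 and 4. No old library held enough of them. Committed preadipocytes were 1333 of 1932, 861 of 1374 and 533 of 1169 in the old libraries and 22 of 2630 in young replicate 2. The part of this mix in the age differences of progenitors was not tested. C3 was 1571, 2832 and 1263 CPM in old and 2127, 1387, 1238 and 1093 CPM in young libraries (0.37, adjusted p = 0.539), with overlapping ages. C1ra was 438, 548 and 781 CPM in old and 600, 604, 456 and 562 CPM in young libraries (0.12, adjusted p = 0.862), and C1s1 was 893, 1132 and 954 CPM in old and 1078, 1017, 773 and 913 CPM in young libraries (0.08, adjusted p = 0.859). C2 overlapped, with 63.3, 74.0 and 124 CPM in old and 182, 82.6, 55.7 and 83.4 CPM in young libraries (-0.13, adjusted p = 0.908). Within regulatory progenitors, where it is highest, C2 was lower in every old library (-0.64, adjusted p = 0.413; exact p = 0.0286). C4b (0.13, adjusted p = 0.915) and Cfb (25.3, 50.9 and 40.1 CPM in old, 62.3, 22.9, 24.8 and 16.3 CPM in young; 0.36, adjusted p = 0.713) overlapped too.

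The age difference itself differed between macrophages and progenitors for 2 genes. In the fit of both classes, 2 of 9 genes passed. For both, the old over young change was lower in macrophages than in progenitors (1.18% of 13956 genes passed in that direction). The C2 difference was -2.63 (SE 0.38, adjusted p = 0.0059) and that of Cfb -1.55 (SE 0.28, adjusted p = 0.0163). The C2 value passed in 17 of 17 alternatives. That of Cfb passed in 16 of 17, and without old replicate 2 it was -1.47 (adjusted p = 0.0702). C3 gave -0.98 (adjusted p = 0.0625). Both classes differed in subclass mix between the ages, and the part of this in these values was not tested. Between macrophages and monocytes none of 9 genes passed by edgeR (0.303% of 9567 genes did), and 2 had an unadjusted p under 0.05.

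**Figure D4:**
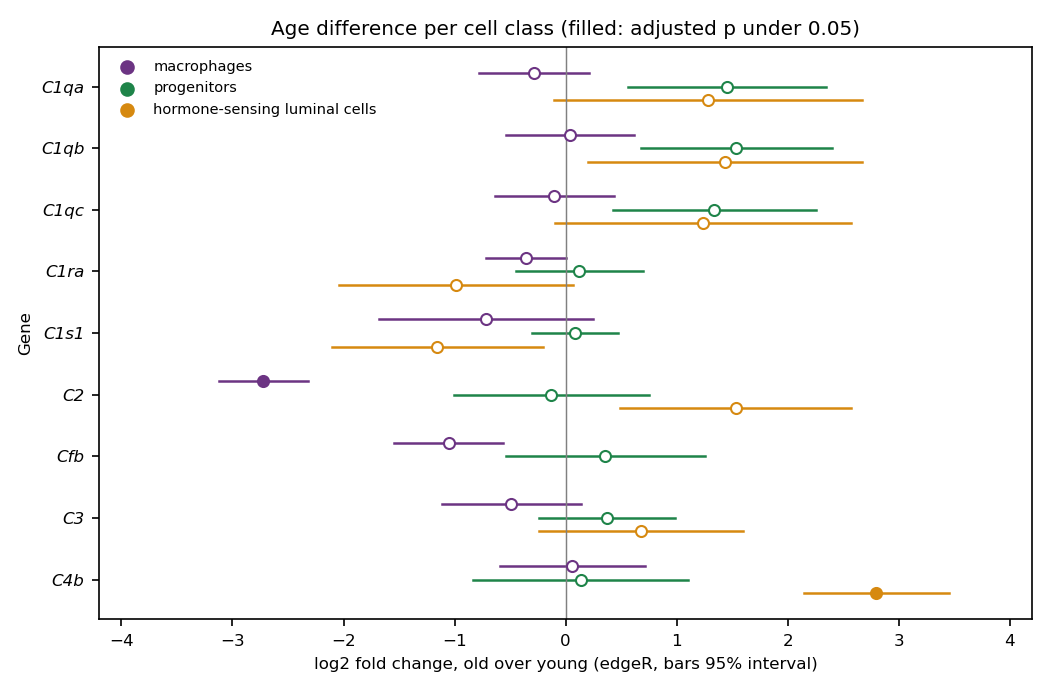
log2 fold change, old over young, with 95% intervals from edgeR, for each complement gene in macrophages, progenitors and hormone-sensing luminal cells; filled points passed at an adjusted p under 0.05. The filled points are C2 in macrophages, at -2.72, and C4b in hormone-sensing luminal cells, at 2.80.

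C4b rose in the hormone-sensing luminal cells of the mammary ducts. It was 80.7, 57.6 and 128 CPM in old libraries (102, 128 and 103 UMIs) and 15.8, 12.6, 9.58 and 11.2 CPM in young libraries (365, 51, 51 and 153 UMIs), with no overlap. The means were 88.6 ± 36 CPM in old and 12.3 ± 2.6 CPM in young libraries (SD, n = 3 and 4). The log2 fold change was 2.80 (SE 0.29, 2.14 to 3.45, adjusted p = 0.0050; exact p = 0.0286), in a fit where 1.11% of 11394 genes passed, 0.895% as higher in old. The old libraries held only 31, 49 and 22 such cells, and C4b over all 7 libraries was 16 times higher in macrophages. A level for stray progenitor and macrophage RNA was scaled from C3 and C1qa, taking all of both in the class as stray. C3 made by the cells themselves would raise it. C3 was 33.4 to 114 CPM in old and 18.8 to 68.9 CPM in young hormone-sensing luminal cells. In T cells it was 5.71 to 55.0 CPM in old and 21.8 to 33.5 CPM in young libraries. The stray level so scaled was 35.2, 22.9 and 8.03 CPM in old and 27.7, 15.9, 7.2 and 6.5 CPM in young libraries. Measured C4b was 2.29 to 15.9 times this in old and 0.571 to 1.73 times in young libraries, while it was 1.25 to 1.71 times in old and 1.10 to 1.53 times in young T cells, 1.27 to 2.51 times in old and 1.23 to 2.05 times in young B cells, and 1.2 to 2.04 times in old and 0.855 to 1.74 times in young endothelial cells. The values of old replicates 1 and 2 in luminal cells, 2.29 and 2.52 times, thus lie near the highest B cell value. The 7 macrophage markers summed to 23.5 to 72.0 CPM in old and 17.5 to 24.2 CPM in young luminal cells, with up to 3 at 0 in an old library, and the 7 progenitor markers to 59.4 to 540 CPM in old and 184 to 596 CPM in young luminal cells. At 2000 UMIs per cell, 8.96% of old luminal cells (2 libraries) and 2.03% of young ones held a C4b UMI, against 5.24% of old and 3.19% of young T cells. Before thinning, library medians were 22856 to 53896 UMIs per luminal cell and 4803 to 8937 per T cell. The T cell share therefore need not be the stray share of luminal cells. Leaving out each library in turn kept the change between 2.38 and 3.07. The fold passed in 16 of 16 alternatives.

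The other epithelial classes held more C4b in old libraries as well. Secretory luminal cells were at 333, 230 and 261 CPM in old libraries and at 58.8 CPM in the 1 young library with enough cells, so no test was made. Basal epithelial cells were at 299, 237 and 150 CPM in old and 73.8, 13.7 and 21.5 CPM in young libraries, and did not overlap. Their log2 fold change was 2.64 (SE 0.52) and did not pass (adjusted p = 0.063; exact p = 0.1, the smallest possible with 3 libraries against 3). It ran from 2.22 to 3.87 with a library left out, with an adjusted p of up to 0.349. It passed in 5 of 16 alternatives, 1 of them the fit without young replicate 1, at 3.87. In basal cells the 7 macrophage markers summed to 63.3 to 168 CPM in old and 22.3 to 142 CPM in young libraries, and their part in the result was not tested. In hormone-sensing luminal cells C2 was also higher in every old library, at 36.4, 34.6 and 66.9 CPM against 18.3, 24.2, 4.7 and 14 CPM in young libraries (1.53, adjusted p = 0.170), and C1s1 was lower, at 11.9, 15.3 and 1.2 CPM against 18.6, 30.1, 23.1 and 19.9 CPM in young libraries (-1.15, adjusted p = 0.254). Of the genes tested there, 12.2% had ages that did not overlap.

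**Figure D5:**
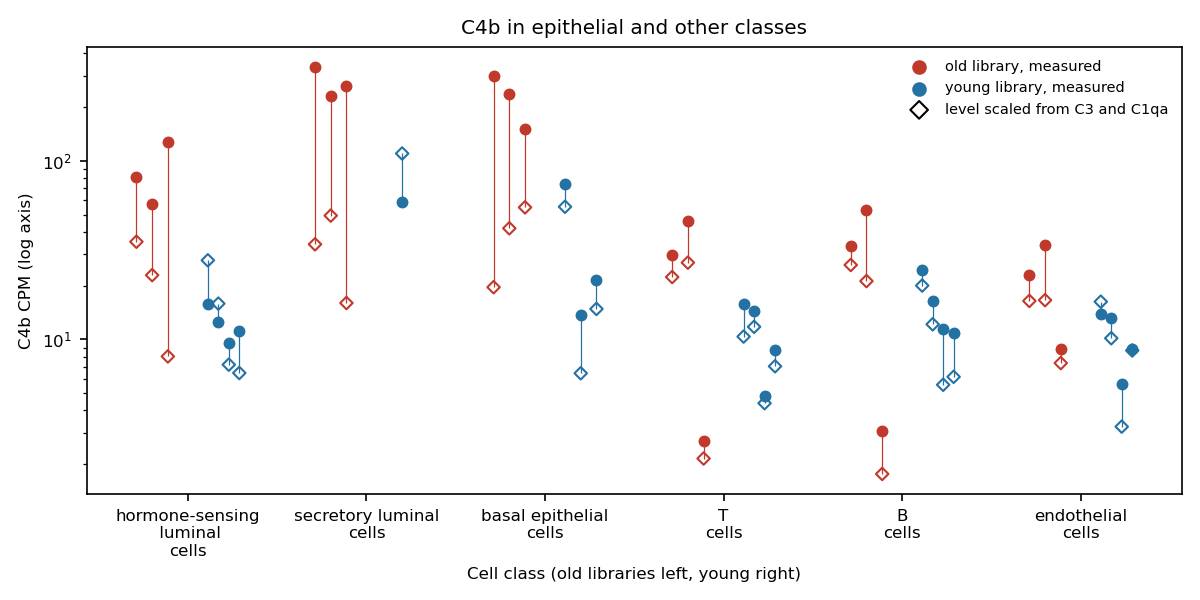
C4b (CPM, log axis) in each library, in epithelial, T, B and endothelial cells, old libraries left of young ones. Dots are measured values and diamonds the level scaled from C3 and C1qa. The diamonds take all C3 and C1qa of a class as stray RNA. In old epithelial cells the dots stand above the diamonds, by 2.29 to 16.3 times, and in young ones they lie at 0.535 to 2.12 times the diamonds.

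C1q levels were low in progenitors and T cells. In progenitors C1qa was 26.5, 35.8 and 6.9 CPM in old and 8.6, 6.7, 9.2 and 8.4 CPM in young libraries (1.45, adjusted p = 0.108), with old replicate 3 in the young range. Without old replicate 3 the 3 chains passed (1.85, adjusted p = 0.00994 for C1qa; 1.89, 0.0305 for C1qb; 1.71, 0.0401 for C1qc). In interstitial progenitors C1qa rose, at 18.7, 28.2 and 20.2 CPM in old and 8.1, 7.7, 9.4 and 9.9 CPM in young libraries (1.36, SE 0.19, adjusted p = 0.0146; 0.351% of 11409 genes passed as higher), but not without old replicate 2 (adjusted p = 0.0779). C1qa is over 10 times higher in macrophages than in these classes. T cells, which do not make C1q, held 41.6, 76.0 and 7.0 CPM in old and 9.5, 12.2, 9.0 and 8.3 CPM in young libraries (1.87, adjusted p = 0.261), and macrophage markers in progenitors summed to 22.1 to 85.9 CPM in old and 21.8 to 41.2 CPM in young libraries.

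Over all kept cells, a sum in which fewer cells of a type and less RNA per cell cannot be told apart, none of 9 genes passed by edgeR (1.7% of 16543 genes did), 3 of them and 21.4% of all genes had an unadjusted p under 0.05, and none passed by DESeq2. C1qa was 485, 806 and 490 CPM in old and 169, 362, 431 and 385 CPM in young libraries (0.82, adjusted p = 0.248). Each C1q chain was higher in every old library and C2 was lower (-0.69, adjusted p = 0.161); 20.2% of all genes had ages that did not overlap.

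Other complement genes were counted from a list of the remaining components, regulators and receptors. In macrophages, where 0.748% of all genes passed, 21 were tested, and C6, a terminal component of the membrane attack complex, fell to 32.5, 30.8 and 26.5 CPM in old libraries, against 108, 87.5, 64.0 and 71.0 CPM in young libraries (-1.43, SE 0.19, adjusted p = 0.0106). Lyve1 resident cells held C6 at 53.8 and 69.6 CPM in old and 130, 136, 99.2 and 109 CPM in young libraries. In MHC class II macrophages the ages overlapped, at 9.6 and 8.09 CPM in old and 13.4, 3.99 and 22.7 CPM in young libraries. The part of the macrophage subclass mix in the C6 difference was not tested. In progenitors, where 1.85% of all genes passed, 27 were tested and Hc and Cd59a fell. Hc, which encodes C5, was 31.7, 27.2 and 36.1 CPM in old and 77.6, 70.3, 134 and 157 CPM in young libraries (-1.79, adjusted p = 0.0376). Cd59a, an inhibitor of the membrane attack complex, was 2.8, 3.0 and 2.2 CPM in old and 17.6, 7.4, 12.9 and 10.2 CPM in young libraries (-2.12, adjusted p = 0.0116), and is 64 times higher in Schwann cells. The part of the subclass mix of progenitors in the Hc and Cd59a values was not tested. In B cells Cr2, the receptor for C3 fragments, fell (-2.30, adjusted p = 0.0082, where 0.249% of genes passed as lower; means 36.9 CPM in old and 177 CPM in young), and in interstitial progenitors Cd55, a convertase inhibitor, rose (1.08, adjusted p = 0.0143). Over all kept cells none of 31 passed by edgeR (11 had an unadjusted p under 0.05).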

How the data were processed

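The authors' deposited files hold, for each library, whole-number UMI counts per gene and barcode, for which the submitters' processing notes name Cell Ranger 4.0.0 and mm10. Total counts were 52336665 to 99516882 UMIs per library; intervals of fold changes come from edgeR's fit and include the spread between libraries. The 9 genes and the gene lists were chosen with earlier results of these data known.

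Cells needed at least 500 UMIs, 300 genes and at most 15% mitochondrial UMIs. The highest Scrublet scores, 0.8% per 1000 barcodes, were left out as doublets. Clustering used scanpy 1.11.5 and leidenalg 0.10.2 (2000 variable genes without the complement genes, 30 components, 15 neighbours, resolution 1), giving 41 clusters. Clusters were named from marker genes, with score limits set after the clusters were seen. Counts were summed per library and class with at least 20 cells. The test was edgeR's 2-sided quasi-likelihood F test (version 4.0.16 in R 4.3.3), after filterByExpr and TMM scaling. P-values were adjusted over all genes by Benjamini-Hochberg, and 0.05 was the threshold. Interactions used the library as a block. Exact permutation tests of mean log2(CPM + 1), or of the chains' shares, used every split of the libraries (35 for 3 against 4, 20 for 3 against 3). Shares of cells used cells thinned to 2000 UMIs. The stray-RNA level of a gene adds its progenitor level times the class-to-progenitor ratio of C3 and its macrophage level times the class-to-macrophage ratio of C1qa. For macrophages themselves only the C3 term was used. All C3 and C1qa counted in a class was taken as stray, including any made by the class itself.

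Named genes are all 9 complement genes, complement list genes that passed (up to 2 per other class), and for each of the 9 the most alike genes by Pearson r among genes reaching 20 CPM in a class. On simulated data, edgeR recovered 51.5% of genes changed by a log2 fold of 1 and 99.0% of those changed by 2 in macrophages (11627 genes), and 26.3% and 100% in progenitors (13976 genes). Alternatives were each library left out, a replicate block, RLE size factors and library sizes alone, DESeq2 1.42.0, no or other filters, doublets kept, stricter cells (500 genes, 5% mitochondrial), resolution 2, complement genes kept for clustering, and, chosen after seeing the data, low-UMI clusters left out.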

Additional observations from a re-analysis of the deposited data

Results flagged for a closer look

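Young replicate 1 stood apart from the other young libraries for 2 genes in macrophages, of 36 gene and group combinations checked; chance alone flags about 1 in 20 groups. Its Cfb level was 94.6 CPM, against 45.7, 46.6 and 51.6 CPM in the other young libraries. Its C1qb level was 4235 CPM, against 3229, 3182 and 3344 CPM. This library held 103 macrophages.

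The age effect of 2 genes differed between macrophages and progenitors in the test of the difference itself. For C2 the old over young log2 fold change was lower by 2.63 in macrophages (-2.63), and for Cfb it was lower by 1.55 (-1.55). The part of the subclass mix of each class in these values was not tested.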

How the results depend on the processing

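Among single genes, 1093 values stayed on their side of the threshold under the alternatives, 35 passed that had not and 9 no longer passed; the causes were not tested. No value that passed turned direction, but values that did not pass could: C4b in macrophages and in progenitors and C2 in progenitors each kept their sign in 15 of 18 alternatives. Among the classes with enough cells in at least 2 libraries of each age, which leaves out smooth muscle cells, the one with the highest level was the same for all 9 genes in all 12 settings. The counts of complement genes that passed changed as follows. In macrophages it was 1 and became 2 without young replicate 1, by DESeq2, without a filter and under stricter cell limits (1 to 2 with a library left out). In progenitors it was 0 and became 3, the C1q chains, by DESeq2 (0 to 3 with a library left out). For the difference between macrophages and progenitors it was 2 and became 6 without a filter (1 to 5 with a library left out), and between macrophages and monocytes 0 became 1 without a filter or with doublets kept (0 to 0). Over the other classes the count of pairs was 1 and became 7 with a replicate block, 3 by DESeq2, 11 without a filter, 2 with doublets kept, 0 under stricter limits, 2 at resolution 2 and 5 with complement genes kept for clustering (1 to 8). In the subclasses 3 became 0 to 3 with a library left out. The labels share replicate numbers between ages, but same-numbered libraries did not all deviate together: correlations were -0.15, 0.03 and -0.003 in macrophages, -0.17, 0.16 and 0.13 in progenitors, -0.24, 0.097 and -0.06 in T cells, -0.11, 0.33 and 0.35 in endothelial cells and 0.099, 0.31 and 0.24 over all kept cells, so the numbers were not taken to pair libraries. With a replicate block, macrophages gave 1, progenitors 0 and all kept cells 0. For C2 in macrophages, the old minus young difference in the share of cells with a UMI was -5.31 percentage points at 2000 UMIs, -2.29 at 1000 and -11.7 without thinning. C4b in hormone-sensing luminal cells could not be fitted at resolution 2 or under the stricter limits. C2 in old macrophages rests on 17 to 70 UMIs per library, and C4b in old luminal cells on 22 to 49 cells per library.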

Other observations

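Some genes of other lists passed by edgeR in the classes where the complement genes were tested. Over all genes of the 15 class fits 0.728% passed. The numbers of list genes tested in the classes below are not given here. Of immediate early genes, which tissue dissociation can induce, Fosl2 in B cells (log2 fold change 2.30), Egr1 in basal epithelial cells (1.56) and Ier3 in T cells (2.44) rose in old libraries. In basal epithelial cells 13 of 7549 genes passed as higher in old. Of interferon-induced genes, Ifi27l2a fell in B cells (-1.51), where 0.249% of 7618 genes passed as lower.

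In the test of the difference in age effect between macrophages and monocytes, 18 other complement genes were tested, in a fit where 0.303% of 9567 genes passed. Itgax, a chain of complement receptor CR4, gave 3.84 and C5ar1, the C5a receptor, gave -1.76 (edgeR adjusted p = 0.0076 and 0.0337).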
